A study of Drosophila melanogaster with 8 samples.

Results

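Cytochrome P450 genes of Drosophila melanogaster whose symbol starts with Cyp, a number, a letter and a number were described in whole females of 2 genotypes at 2 stages. The rule used the gene symbol alone and found 81 genes among 15296 gene models. Of these, 67 reached a mean of at least 1 FPKM over all libraries and were tested among 9679 genes. FPKM is a count of sequenced fragments divided by gene model length and by library size. Steroid hormone P450 genes with names of another form, such as phm and shd, lie outside the rule.

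RNA came from A4/A4 and A12/A12 females kept at 18 °C, as third-instar larvae and as adults aged 2 to 3 days. A4/A4 carried the inversion In(2)A4 on both copies of chromosome 2, and the series sets these animals, which show position effect variegation, against a wild type, for which A12/A12 stood. The 4 groups, A4 adults, A12 adults, A4 larvae and A12 larvae, had 2 libraries each, 8 in all. A4 larvae were homozygotes without fluorescence, chosen from a stock balanced over CyO-GFP. How A4 adults were chosen, and how the A12 stock was made, is not given in the sources used here, so genotype and stock cannot be told apart. Nothing in the labels says that replicates are separate cultures, so the spread behind each p-value is that between these libraries and may be technical.

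P450 enzymes are heme proteins that add 1 oxygen atom to a substrate. Those of the microsomal CYP2, CYP3 and CYP4 clans take electrons from the NADPH reductase Cpr and from cytochrome b5, and those of the mitochondrial clan take them through the adrenodoxin reductase dare and a ferredoxin. In insects many CYP3 clan members, expressed in midgut, Malpighian tubule and fat body, act on plant toxins and insecticides, some CYP4 clan members act on fatty acids and hydrocarbons, and a few members make or break down hormones. The 81 genes fell into 36 of the CYP3 clan, 32 of the CYP4 clan, 9 of the mitochondrial clan and 4 of the CYP2 clan. By position 34 lay on chromosome arm 2R, 15 on 3R, 14 on X, 12 on 2L and 6 on 3L.

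Absolute depth was unknown, because the files hold no read counts. From the upper confidence bounds of weakly expressed genes, 1 FPKM stood for a median of 13 to 21.9 fragments, depending on the library. Yolk protein genes, made in adult females, summed to 5966.3 to 9230.4 FPKM in adult libraries and to 4.12 to 8.44 FPKM in larval ones. A4 larvae replicate 2 stood apart: 14 testis and male genes summed to 124.8 FPKM there, against 3.45 to 14.9 FPKM in the other larval libraries and 0.503 to 1.53 FPKM in adult ones. The main P450 counts that use it are therefore also given without it. Over the 67 tested P450 genes, the 2 libraries of a group had correlations between 0.969 and 0.990 for log2(FPKM + 1). These are across genes, which are not independent replicates.

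Of the 81 genes, 48 reached 1 FPKM in all 8 libraries and 12 stayed under 1 FPKM in all 8. Cyp310a1 alone was above that level in all larval libraries and below it in all adult ones. The reverse held for 5 genes, Cyp313a1, Cyp313a4, Cyp4ac2, Cyp6a19 and Cyp6a20, the last a gene linked to male aggression. The number of P450 genes at 1 FPKM or more was 62 and 60 in A4 adults, 63 and 62 in A12 adults, 61 and 62 in A4 larvae and 52 and 57 in A12 larvae. The 14 genes not tested reached at most 1.83 FPKM in any library. Among them Cyp303a1, needed for sensory bristles, lay between 0.176 and 0.531 FPKM.

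An exact 0 in these files need not mean absence. The larval fat body gene Fbp1 was listed at 0 in 3 larval libraries and at 3714.1 FPKM in the remaining one. Cyp4e1, Cyp12d1-d, Cyp6g2, Cyp6t3 and Cyp4aa1 were listed at 0 in all 8 libraries, and 11 more P450 genes were listed at 0 in some. Of these 5 genes 4 overlap another gene model, and Cyp12d1-d is a near-identical copy of Cyp12d1-p, a xenobiotic-inducible gene that had 0.350 to 1.79 FPKM. In all, 30 P450 gene models overlap another model, and whether counting used strand is not given in the sources used here. Among genes described below this holds for Cyp6a2, Cyp6a9, Cyp6a19, Cyp6d5, Cyp6g1, Cyp9b1, Cyp9c1, Cyp28d1, Cyp310a1, Cyp4ac1, Cyp4ac2, Cyp4d20, Cyp4g1, Cyp4p1, Cyp4p2, Cyp4p3, Cyp4s3, Cyp313a1, Cyp301a1, Cyp49a1 and Cyp304a1, whose levels may hold reads of the neighbour.

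**Figure D1:**
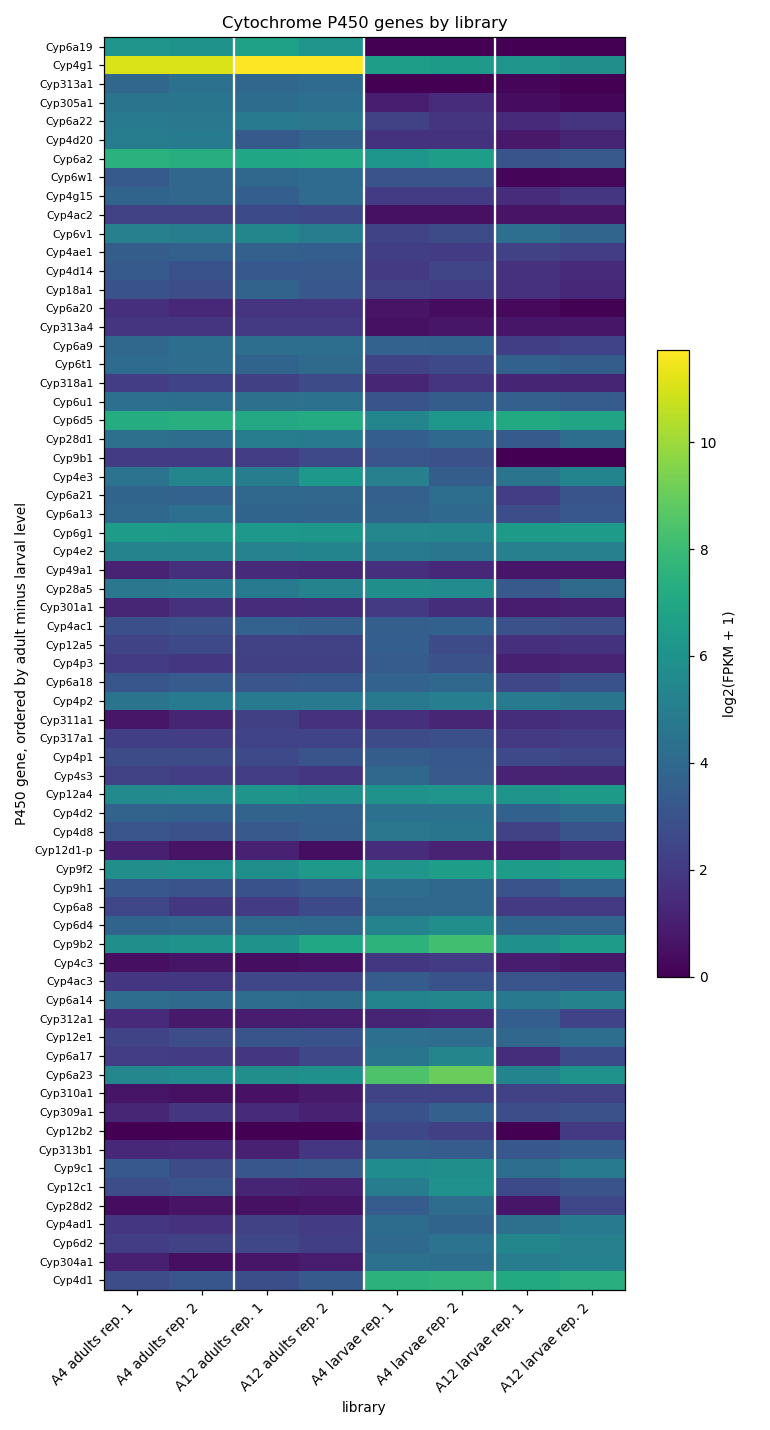
Expression of the 67 tested P450 genes, as log2(FPKM + 1), in each of the 8 libraries, with genes ordered from the highest adult over larval level at the top to the lowest at the bottom. Cyp4g1 is brightest in all 4 adult libraries, while Cyp6a23 and Cyp9b2 are brightest in A4 larvae.

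The first comparison asked which P450 genes differ between A4 and A12 larvae. A4 larvae had higher levels of many P450 genes, led by Cyp6a2 and Cyp6a23 of the CYP3 clan. Levels of a few were lower, among them the insecticide resistance gene Cyp6g1. With limma on log2(FPKM + 1), adjusted over all 9679 genes at 0.05, 28 of the 67 tested genes were higher in A4 larvae (41.8%), where 8.75% of all tested genes were. Another 6 were lower (8.96%), where 25.9% of all tested genes were. By clan, the share of tested genes called higher was 51.6% in CYP3, 50% in the mitochondrial clan, 33.3% in CYP2 and 28% in CYP4. The median log2 change of the 67 was 0.51, and over all tested genes it was -0.43. After centring each library on its median, to remove that general shift, 35 were higher and 2 lower, with 13.7% and 10.1% of all tested genes called higher and lower.

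These counts rested in part on single libraries. Without A4 larvae replicate 2, the library with the testis and male genes, 16 P450 genes were higher and 5 lower, with 6.29% and 14.8% of all tested genes higher and lower. Without A12 larvae replicate 1, 15 were higher and 3 lower, with 5.32% and 9% of all tested genes higher and lower. Without A4 larvae replicate 1, 20 were higher and 3 lower, with 6.55% and 10.3% of all tested genes higher and lower. Cyp28d2, Cyp317a1, Cyp49a1, Cyp4d20, Cyp4p1 and Cyp6a13 lost their call in each of these 3 fits. Cyp305a1, Cyp6a18, Cyp6a21, Cyp9b2 and Cyp9c1 lost theirs without A4 larvae replicate 2 and without replicate 1 of the A12 larvae. Cyp4ac1 lost its call without either A4 larval library, Cyp301a1 without replicate 1 of either larval group, and Cyp12a5 without replicate 1 of the A12 larvae. Without replicate 2 of the A12 larvae, Cyp301a1, Cyp305a1, Cyp49a1 and Cyp4p1 lost their call. Fitting the larvae alone gave 13 higher and 1 lower, with 4.36% and 6.34% of all tested genes called. These whole-animal values cannot tell more cells of a P450-rich tissue from more RNA per cell.

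Among CYP3 clan genes, 16 of 31 tested rose (51.6%) and 5 fell (16.1%), where 8.75% and 25.9% of all tested genes did. After median centring 18 rose and 1 fell, where 13.7% and 10.1% of all tested genes did. The 16 became 9 without A4 larvae replicate 2, and likewise without replicate 1 of the A12 larvae. Cyp6a2 (2R, 2667254 to 2668996 in build dm3), a gene raised in insecticide-resistant strains, had 69.2 and 92.8 FPKM in A4 larvae, against 7.20 and 8.81 FPKM in A12 larvae. The groups did not overlap, and the log2 change was 3.18 ± 0.21 (SE; limma adjusted p = 0.000123). Cyp6w1 had 7.08 and 6.93 FPKM in A4 larvae, against 0.165 and 0.203 FPKM in A12 larvae, a log2 change of 2.76 ± 0.23 (adjusted p = 0.000287). A12 larvae thus held little of it in both libraries. Cyp9b1 had 7.62 and 6.50 FPKM in A4 larvae and was listed at 0 in both A12 larval libraries. Its neighbour Cyp9b2, one of the most abundant larval P450 genes, had 188.5 and 291.0 FPKM in A4 larvae, against 57.6 and 87.9 FPKM in A12 larvae (log2 change 1.70 ± 0.39, adjusted p = 0.0166).

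The CYP28 family contributed a pair of risen genes. Cyp28a5 had 56.6 and 50.1 FPKM in A4 larvae, against 8.72 and 15.8 FPKM in A12 larvae, a log2 change of 2.09 ± 0.28 (adjusted p = 0.00194). Cyp28d2 had 9.71 and 17.1 FPKM in A4 larvae, against 0.651 and 4.64 FPKM in A12 larvae, with a log2 change of 2.19 ± 0.55 (adjusted p = 0.022) that lost its call when either A4 larval library or replicate 1 of the A12 larvae was left out. Its neighbour Cyp28d1, linked to nicotine resistance, overlapped between genotypes, with 10.2 and 15.2 FPKM in A4 larvae and 8.85 and 17.8 FPKM in A12 larvae. Cyp6d4 had 37.0 and 53.5 FPKM in A4 larvae, against 12.6 and 13.2 FPKM in A12 larvae (1.71 ± 0.21, adjusted p = 0.00138). Cyp9c1 had 50.7 and 56.7 FPKM in A4 larvae, against 17.8 and 26.3 FPKM in A12 larvae (1.27 ± 0.25, adjusted p = 0.00966).

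The largest cluster of P450 genes with gaps of at most 10 kb holds 8 Cyp6a genes on 2R, from Cyp6a22 at 10759178 to Cyp6a8 at 10776514 in build dm3. In A4 larvae 5 of the 8 rose and none fell, and 4 of the 8 rose without A4 larvae replicate 2. In the full fit 62.5% of the cluster rose, where 8.75% of all tested genes were higher. Cyp6a23 had 349.7 and 520.6 FPKM in A4 larvae, against 37.5 and 64.7 FPKM in A12 larvae, a log2 change of 3.09 ± 0.31 (adjusted p = 0.000561). Its close paralog Cyp6a17, a gene needed for normal temperature preference, had 22.5 and 39.5 FPKM in A4 larvae, against 1.91 and 5.28 FPKM in A12 larvae (2.85 ± 0.43, adjusted p = 0.00322). Reads shared by this pair may have been split between them, so their single levels are less certain than their direction. Cyp6a8, inducible by phenobarbital, had 14.1 and 14.2 FPKM in A4 larvae, against 2.92 and 2.94 FPKM in A12 larvae (1.95 ± 0.28, adjusted p = 0.00259). Replicates of Cyp6a8 differed by far less than the genotypes did.

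Within the same cluster, Cyp6a9 and Cyp6a21 rose by 1.41 ± 0.18 and 1.30 ± 0.34 on the log2 scale. Cyp6a22 and Cyp6a20 did not pass the test, at 0.45 ± 0.23 and 0.33 ± 0.23. Cyp6a19, which overlaps Cyp6a9, was listed at 0 in all 4 larval libraries. Apart from Cyp6a19, each gene of the cluster was higher in both A4 larval libraries than in both A12 ones. The share of all tested genes separated in this way was not counted, so the pattern is no result about the cluster. Cyp6a22 had 3.79 and 2.5 FPKM in A4 larvae, against 1.6 and 2.44 FPKM in A12 larvae, and was called higher after median centring. Cyp6a20 was weak, at 0.546 and 0.314 FPKM in A4 larvae and 0.216 and 0.0578 FPKM in A12 larvae.

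**Figure D2:**
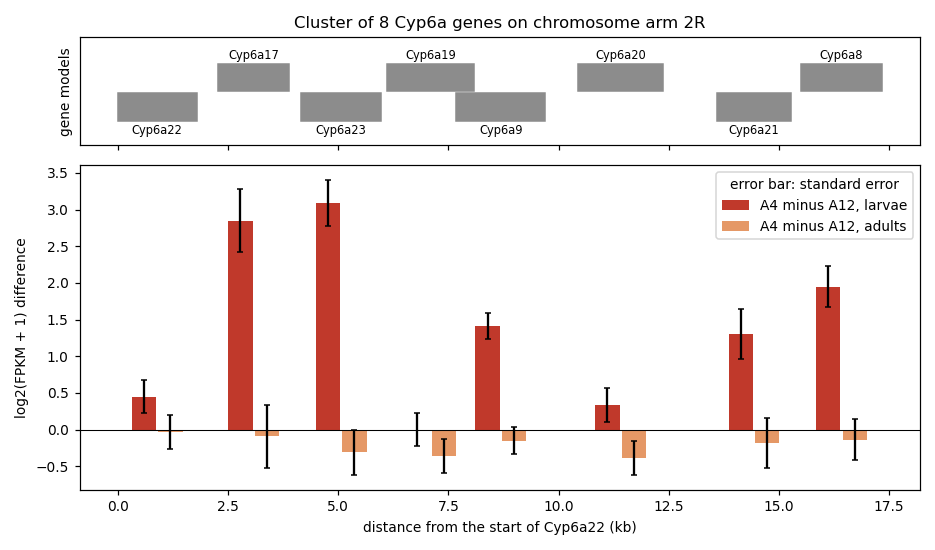
Gene models of the cluster of 8 Cyp6a genes, drawn to scale by distance from its start in kb, above bars of the A4 minus A12 difference on the log2(FPKM + 1) scale in larvae and in adults, with standard errors. Cyp6a17 and Cyp6a23 stand highest in larvae, at 2.85 and 3.09, and no adult bar passes the test.

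In the CYP4 clan 7 of 25 tested genes rose and 1 fell, while 4 rose and none fell when either A4 larval library was left out. In the full fit 28% of the tested CYP4 clan genes rose and 4% fell, where 8.75% and 25.9% of all tested genes did. Cyp4s3 had 13.9 and 8.60 FPKM in A4 larvae, against 1.27 and 1.34 FPKM in A12 larvae, a log2 change of 2.38 ± 0.26 (adjusted p = 0.000785). Cyp4p3 had 9.67 and 6.54 FPKM in A4 larvae, against 1.03 and 1.20 FPKM in A12 larvae (2.09 ± 0.23, adjusted p = 0.000848). In the same 3-gene cluster Cyp4p1 rose by 0.80 ± 0.21, and Cyp4p2 did not pass the test at 0.20 ± 0.19. Cyp4d8 had 24.0 and 22.2 FPKM in A4 larvae, against 3.91 and 7.32 FPKM in A12 larvae (1.91 ± 0.27, adjusted p = 0.00259). Cyp4c3, Cyp4ac1 and Cyp4d20 rose by less, from 0.72 to 1.15 on the log2 scale.

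In the mitochondrial clan 4 of 8 tested genes rose (50%) and none fell, where 8.75% and 25.9% of all tested genes did. The 4 became 3 without A4 larvae replicate 2, 2 without replicate 1 of the A4 larvae, and 1 without replicate 1 of the A12 larvae. Cyp12c1 had 30.7 and 60.1 FPKM in A4 larvae, against 5.19 and 7.04 FPKM in A12 larvae, a log2 change of 2.64 ± 0.32 (adjusted p = 0.00131). Cyp12a5 rose by 1.43 ± 0.28, while its neighbour Cyp12a4, a gene linked to lufenuron resistance, had 63.8 and 67.7 FPKM in A4 larvae and 65.1 and 83.8 FPKM in A12 larvae. Cyp301a1, which acts in adult cuticle formation, and Cyp49a1 rose by 0.81 ± 0.25 and 0.74 ± 0.24 (adjusted p = 0.0454 and 0.0493), close to the threshold. In the CYP2 clan Cyp305a1 rose by 0.96 ± 0.22, and Cyp18a1, the ecdysteroid 26-hydroxylase that inactivates the molting hormone, did not pass the test at 0.73 ± 0.25 (adjusted p = 0.0557). Its libraries did not overlap, at 4.01 and 3.44 FPKM in A4 larvae and 2.17 and 1.56 FPKM in A12 larvae.

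The 6 genes lower in A4 larvae were 5 of the CYP3 clan and Cyp312a1 of the CYP4 clan. Cyp6g1, whose raised expression gives resistance to DDT and neonicotinoids, had 41.9 and 40.3 FPKM in A4 larvae, against 83.2 and 85.3 FPKM in A12 larvae, a log2 change of -1.02 ± 0.16 (adjusted p = 0.00408). Cyp6v1 had 4.25 and 5.30 FPKM in A4 larvae, against 18.5 and 13.1 FPKM in A12 larvae (-1.53 ± 0.25, adjusted p = 0.00441). Cyp6t1 had 4.32 and 4.98 FPKM in A4 larvae, against 11.4 and 10.1 FPKM in A12 larvae (-1.06 ± 0.18, adjusted p = 0.00584). Replicates of Cyp6g1 and Cyp6t1 lay close together, while those of Cyp6v1 in A12 larvae lay further apart.

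The other 3 varied more or lost their call more often. Cyp6d5 had 41.2 and 75.8 FPKM in A4 larvae, against 137.5 and 115.2 FPKM in A12 larvae (-1.16 ± 0.29, adjusted p = 0.0231). Cyp6d2 had 14.9 and 21.1 FPKM in A4 larvae, against 40.4 and 33.4 FPKM in A12 larvae (-1.01 ± 0.23, adjusted p = 0.0163). Cyp312a1 had 1.33 and 1.53 FPKM in A4 larvae, against 10.3 and 4.18 FPKM in A12 larvae (-1.65 ± 0.38, adjusted p = 0.0172). Each of the 3 calls was lost when replicate 1 of either larval group was left out. The call on Cyp312a1 was also lost without replicate 2 of the A4 larvae, and that on Cyp6d5 without replicate 2 of the A12 larvae. After median centring only Cyp6v1 and Cyp312a1 of the 6 were still called lower, and Cyp6g1 came to an adjusted p of 0.0582.

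**Figure D3:**
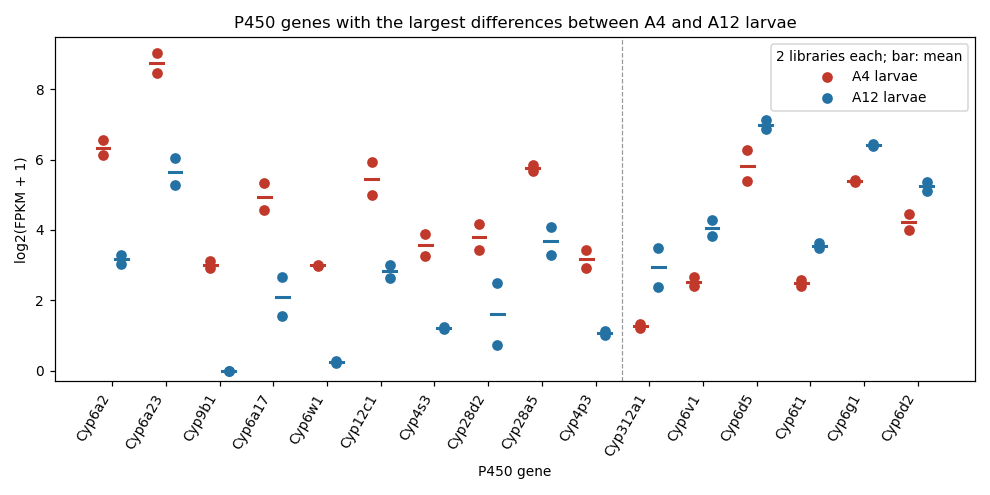
Levels, as log2(FPKM + 1), of the 10 P450 genes with the largest rise and the 6 called lower in A4 larvae (left of each pair) and A12 larvae (right), with a point for each of 2 libraries and a bar at their mean. Left of the dashed line the points of A4 and A12 larvae do not overlap for any gene, and Cyp9b1 lies at 0 in both A12 libraries.

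Markers of other tissues and of progress through the instar moved with the same larval comparison. Over all tested genes 8.75% were higher and 25.9% lower. Of 12 midgut genes 8 were higher in A4 larvae and none lower, and they summed to 30620.2 and 55979.2 FPKM in A4 larvae, against 12244.0 and 23042.0 FPKM in A12 larvae. Of 7 tested Malpighian tubule genes 2 were higher and 1 lower, with sums over 8 genes of 110.5 and 98.2 FPKM in A4 larvae and 46.5 and 50.5 FPKM in A12 larvae. That difference rested on the urate oxidase gene Uro, with 52.1 and 53.8 FPKM in A4 larvae, against 1.31 and 3.12 FPKM in A12 larvae. Without Uro the sums overlapped, at 58.4 and 44.4 FPKM in A4 larvae and 45.2 and 47.4 FPKM in A12 larvae, and ZnT35C was called lower in A4 larvae at -0.90 ± 0.23. Of 14 salivary gland and third-instar genes 2 were higher and 10 lower. The 2 higher, ng1 and ng2, changed by 4.56 ± 0.30 and 4.82 ± 0.33 on the log2 scale. Among the lower were Eig71Ea at -5.52 ± 0.21, ImpE3 at -3.70 ± 0.21 and ImpE2 at -3.42 ± 0.28. The list summed to 15838.4 and 16093.8 FPKM in A4 larvae, against 28111.0 and 40433.6 FPKM in A12 larvae. Most of each sum was Sgs7, with 12891.3 and 13214.1 FPKM in A4 larvae and 21451.4 and 32484.0 FPKM in A12 larvae. After median centring the salivary gland list had 2 higher and 5 lower. The Malpighian tubule list then had 4 and 0, and the midgut list 9 and 0. Over all tested genes 13.7% were higher and 10.1% lower after centring. Of 5 tested larval fat body genes 1 was higher and 1 lower, with sums of 57543.8 and 49960.7 FPKM in A4 larvae and 38244.6 and 59839.8 FPKM in A12 larvae. No gene of the midgut, Malpighian tubule and salivary gland lists was listed at 0 in a larval library. The part of these tissues in the P450 differences was not tested. The stage within the instar was not recorded, so it cannot be told apart from genotype.

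By position, 19 of 38 tested P450 genes on chromosome 2, which carries the inversion, were higher in A4 larvae (50%), and 2 were lower. On 3L, 3R and X 9 of 29 were higher (31%), and 4 were lower. Among all tested genes 8.26% on 2L and 2R were higher and 24.8% lower, and on 3L, 3R and X 9.19% were higher and 26.7% lower. Without A4 larvae replicate 2, 10 P450 genes on chromosome 2 and 6 on the other arms were higher, with 5.98% and 6.57% of all tested genes there. The difference between the chromosomes was not tested.

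In adults the genotype comparison looked different. None of the 67 tested P450 genes was called higher or lower in A4 adults by limma, where 0.217% of all tested genes were higher and 0.517% lower. At an unadjusted p under 0.05 the counts were 2 higher and 5 lower (2.99% and 7.46%), where 3.67% and 6.87% of all tested genes were. After median centring both counts were again 0, where 0.176% and 0.486% of all tested genes were called higher and lower. The median log2 change of the 67 was -0.12, against -0.05 over all tested genes, and single changes ran from -0.97 to 1.76. The 95% intervals of these differences had a median width of 1.11 on the log2 scale.

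The genes nearest to the threshold were Cyp4d20 and Cyp12c1, both also higher in A4 larvae and named here after their values were seen. Cyp4d20 (3L, 2476259 to 2478448) had 30.1 and 26.9 FPKM in A4 adults, against 9.0 and 12.3 FPKM in A12 adults, a log2 change of 1.35 ± 0.23 (adjusted p = 0.062). Cyp12c1 had 5.84 and 7.21 FPKM in A4 adults, against 1.31 and 1.12 FPKM in A12 adults (1.76 ± 0.32, adjusted p = 0.0868). Both genes separated the genotypes without overlap. They passed the threshold when genes listed at 0 in any library were left out, Cyp4d20 also did so with a pseudocount of 5, and the weak gene Cyp313a3 was called lower when no filter on low values was used.

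The most abundant P450 gene, Cyp4g1 (X, 361090 to 363366), encodes the oenocyte enzyme that makes cuticular hydrocarbons. It had 2094.3 and 2122.3 FPKM in A4 adults, against 3365.8 and 3306.1 FPKM in A12 adults, a log2 change of -0.66 ± 0.21 that missed the threshold (adjusted p = 0.355; 95% interval -1.15 to -0.17). Its libraries did not overlap between genotypes. The oenocyte fatty acid elongase gene eloF was also lower in both A4 libraries, with 70.0 and 70.7 FPKM in A4 adults and 101.6 and 112.0 FPKM in A12 adults, and it too missed the threshold (-0.59 ± 0.20, adjusted p = 0.387). The other oenocyte markers, Hnf4 and svp, were listed above 0 in all libraries, and their sums overlapped, at 18.6 and 17 FPKM in A4 adults and 22.9 and 16.4 FPKM in A12 adults. The part of these cells in the Cyp4g1 values was not tested.

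Among genes known from insecticide work, none passed the test between adults of the genotypes. Cyp6a2, Cyp6g1 and Cyp6d5 were higher in A4 adults without overlap of libraries, and Cyp28d1 and Cyp12a4 were lower without overlap. Such separation was common, since 9 of the 67 tested P450 genes lay above and 23 below in A4 adults. The share over all tested genes was not counted. Cyp28d1 had 19 and 17 FPKM in A4 adults, against 29.6 and 26.4 FPKM in A12 adults. For Cyp12a4 the values were 46.5 and 49.4 FPKM in A4 adults, against 65 and 58.6 FPKM in A12 adults. Cyp6a2 had 175.8 and 156.3 FPKM in A4 adults, against 118.6 and 129.9 FPKM in A12 adults, a log2 change of 0.41 ± 0.21 (95% interval -0.08 to 0.91, adjusted p = 0.539). Cyp6g1 had 87.1 and 80.1 FPKM in A4 adults and 74.5 and 73.7 FPKM in A12 adults (0.17 ± 0.16, 95% interval -0.21 to 0.55, adjusted p = 0.768). Cyp6d5 had 152.2 and 169.2 FPKM in A4 adults and 133.8 and 149.2 FPKM in A12 adults (0.18 ± 0.29, adjusted p = 0.897). A p above the threshold does not show that these levels were equal.

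In the log2 ratios of the authors' deposited table, which lists 61 of the 81 genes, 24 had a ratio of A4 to A12 of 1 or more in larvae and 6 a ratio of -1 or less. In adults the same table gave 2 and 1. These are cutoffs on a ratio without a test, and the share over all genes of that table was not counted.

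Whether the genotype difference itself differed between stages was tested as an interaction, the A4 minus A12 difference in adults less that in larvae. It was lower for 18 of the 67 genes and higher for 3, where 6.75% and 10.9% of all tested genes were lower and higher. The median over the 67 was -0.65, and over all tested genes 0.37. After median centring 24 were lower and 1 higher, where 9.65% and 5.93% of all tested genes were. The interaction contains the larval difference, so it is no independent check on the larval calls. Of the 28 genes higher in A4 larvae, 16 were among the 18, which also held Cyp18a1 (-1.32 ± 0.35, adjusted p = 0.0421) and Cyp4g1 (-1.17 ± 0.30, adjusted p = 0.0374). The calls on these 2 genes were each lost in 7 of 8 fits that left out 1 library, with adjusted p up to 0.136 for Cyp18a1 and 0.103 for Cyp4g1. Without A4 larvae replicate 2 there were 12 lower and 3 higher. Without A4 adults replicate 1 the 18 became 11, and without A4 adults replicate 2 they became 9. The 3 higher became 0 without either A4 adult library and 1 without A4 larvae replicate 1 or without A12 larvae replicate 1.

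The strongest interactions had a large larval and a small adult difference. Cyp6a23 had 41.6 and 49.5 FPKM in A4 adults and 55 and 58.0 FPKM in A12 adults, and its difference was lower by 3.40 ± 0.43 on the log2 scale than in larvae (adjusted p = 0.00365). Cyp6w1 had 9.07 and 13.8 FPKM in A4 adults and 13.9 and 16.3 FPKM in A12 adults, an interaction of -3.15 ± 0.32 (adjusted p = 0.00155). For Cyp6a2 the interaction was -2.76 ± 0.30 (adjusted p = 0.00189). In the other direction the 3 genes were Cyp6g1 (1.19 ± 0.23), Cyp6t1 (1.27 ± 0.26) and Cyp6v1 (1.38 ± 0.35), all 3 lower in A4 larvae. The only one of these 3 still called after median centring was Cyp6v1.

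**Figure D4:**
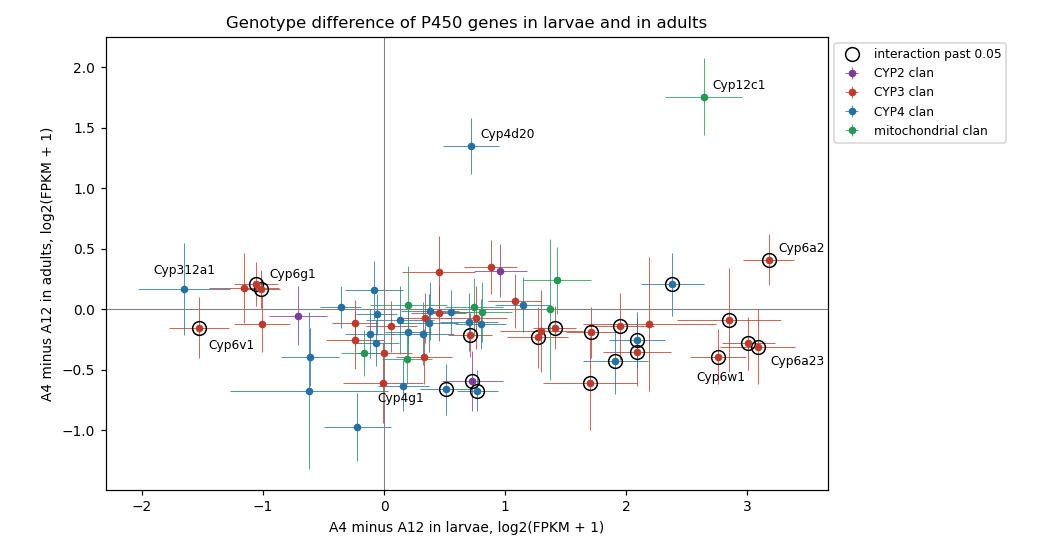
A4 minus A12 difference of each of the 67 tested P450 genes on the log2(FPKM + 1) scale, in larvae (horizontal) and in adults (vertical), with standard errors and colours by clan; open circles mark genes whose interaction passed 0.05. Larval differences spread from -1.65 to 3.18, while adult ones lie between -0.97 and 1.76.

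The stage comparisons asked how the repertoire differs between adults and larvae of each genotype. Adults were marked by Cyp4g1, Cyp6a19, Cyp313a1 and Cyp305a1, and larvae by Cyp4d1, Cyp304a1 and Cyp6d2, in both genotypes. In A4, 21 of the 67 genes were higher in adults and 30 lower, where 55.8% and 13.9% of all tested genes were. Without A4 larvae replicate 2 these counts were 19 and 28. In A12, 28 were higher and 12 lower, where 41.1% and 17.6% of all tested genes were. The scale mattered here, since the median change over all tested genes was 0.87 in A4 and 0.48 in A12, and the medians of the 67 were -0.49 and 0.38. After median centring A4 had 9 higher and 41 lower, where 23.5% and 30% of all tested genes were, and A12 had 18 of each, where 27.1% and 29.2% were.

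The A4 and A12 stage comparisons share no library. In both, 17 genes were higher in adults, which is 81% of the genes called higher in A4 and 60.7% of those in A12. Over all tested genes these shares were 64.2% and 87.2%. Another 11 were lower in adults of both genotypes, which is 36.7% of the genes called lower in A4 and 91.7% of those in A12, and over all tested genes 70% and 55.3%. After median centring these shared counts were 8 and 17. The 8 were 88.9% of the genes called higher in A4 and 44.4% of those in A12, and over all tested genes 74.8% and 64.9%. The 17 were 41.5% of the genes called lower in A4 and 94.4% of those in A12, and over all tested genes 69.8% and 71.6%.

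Cyp4g1 had the largest adult level, at 2094.3 and 2122.3 FPKM in A4 adults and 93.0 and 83.7 FPKM in A4 larvae (4.56 ± 0.21 on the log2 scale, adjusted p = 3.52e-06). In A12 it had 3365.8 and 3306.1 FPKM in adults and 69.0 and 55.1 FPKM in larvae (5.73 ± 0.21, adjusted p = 1.27e-06). Its relative Cyp4g15, expressed in the nervous system, rose by 1.76 ± 0.24 in A4 adults and by 2.15 ± 0.24 in A12 adults. Cyp6a19, listed at 0 in all 4 larval libraries, had 69.0 and 60.9 FPKM in A4 adults and 103.2 and 67.1 FPKM in A12 adults.

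Cyp313a1 had 13.7 and 20.4 FPKM in A4 adults and 13.5 and 16.1 FPKM in A12 adults, and was listed at 0 in 3 larval libraries and at 0.112 FPKM in A12 larvae replicate 1. Cyp305a1 had 21.8 and 22.7 FPKM in A4 adults and 0.959 and 1.80 FPKM in A4 larvae (3.31 ± 0.22, adjusted p = 2.38e-05). In A12 it had 16.9 and 18.5 FPKM in adults and 0.295 and 0.111 FPKM in larvae (3.96 ± 0.22, adjusted p = 8.12e-06). Adults and larvae were thus well apart in both genotypes. Cyp6a2 rose by 1.04 ± 0.21 in A4 adults and by 3.80 ± 0.21 in A12 adults, and Cyp6w1 by 0.61 ± 0.23 in A4 adults and 3.76 ± 0.23 in A12 adults. In A4 the calls on Cyp6a2, Cyp6w1 and Cyp4g15 were lost after median centring, at 0.08, -0.35 and 0.80, so that Cyp6w1 changed sign. Cyp6a22 and Cyp4d20 rose by 2.68 ± 0.23 and 3.15 ± 0.23 in A4 adults, and by 3.16 ± 0.23 and 2.52 ± 0.23 in A12 adults.

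Among larval genes, Cyp4d1 had 5.87 and 7.70 FPKM in A4 adults, against 185.8 and 199.7 FPKM in A4 larvae (-4.65 ± 0.24, adjusted p = 5.64e-06). In A12 it had 5.97 and 9.01 FPKM in adults, against 137.0 and 162.4 FPKM in larvae (-4.17 ± 0.24, adjusted p = 8.04e-06). Cyp304a1, of the CYP2 clan, had 1.06 and 0.388 FPKM in A4 adults, against 20.1 and 17.7 FPKM in A4 larvae (-3.56 ± 0.24), and its change in A12 was -4.22 ± 0.24. The stages did not overlap for either gene. Cyp6d2, Cyp4ad1 and Cyp313b1 fell by 2.03, 2.20 and 2.11 on the log2 scale in A4 adults, and by 2.91, 2.42 and 1.89 in A12 adults. Cyp310a1 fell by 1.75 in A4 adults and by 1.55 in A12 adults. Cyp6a23, Cyp28d2 and Cyp9c1 were among the 6 largest falls in A4 adults, at -3.20, -3.30 and -2.80, and of these only Cyp9c1 was also called lower in A12 adults, at -1.30.

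The genotypes gave opposite stage calls for 6 genes, Cyp28a5, Cyp4ac1, Cyp4d8, Cyp4p3, Cyp4s3 and Cyp9b1, which were lower in A4 adults than in A4 larvae and higher in A12 adults than in A12 larvae. They were 8.96% of the tested P450 genes, where 0.858% of all tested genes had such calls. Without A4 adults replicate 1 only Cyp4p3 and Cyp9b1 had both calls, and over fits that left out 1 library the count ran from 2 to 6. Cyp28a5 had 24.0 and 26.5 FPKM in A4 adults, against 56.6 and 50.1 FPKM in A4 larvae (-1.05 ± 0.28, adjusted p = 0.0114). In A12 it had 28.6 and 36.4 FPKM in adults, against 8.72 and 15.8 FPKM in larvae (1.38 ± 0.28, adjusted p = 0.00407). Adult levels of the 2 genotypes were near each other, and larval levels were far apart. After median centring the 6 were still lower in A4 adults, while only Cyp9b1 was still higher in A12 adults, which is 1.49% of the tested P450 genes, where 1.41% of all tested genes had such calls.

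The sum of P450 FPKM showed how much a few genes weigh. The 81 genes summed to 3311.0 and 3378.0 FPKM in A4 adults, 4606.9 and 4685.2 FPKM in A12 adults, 1801.8 and 2215.4 FPKM in A4 larvae, and 1106.6 and 1269.4 FPKM in A12 larvae. Neither genotype pair overlapped, but a two-sided exact permutation test of 2 libraries against 2 cannot give a p below 0.333. Cyp4g1 made up 63.3% and 62.8% of the sum in A4 adults and 73.1% and 70.6% in A12 adults. Without Cyp4g1 the sums were 1216.8 and 1255.7 FPKM in A4 adults and 1241.2 and 1379.2 FPKM in A12 adults, which overlap.

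Larval sums were spread over more genes. Cyp6a23 took 19.4% and 23.5% in A4 larvae, ahead of Cyp9b2 at 10.5% and 13.1%. In A12 larvae Cyp6d5 took 12.4% and 9.07%, and Cyp4d1 took 12.4% and 12.8%. The CYP3 clan held 62.6% and 70.1% of the sum in A4 larvae and 55.2% and 55.6% in A12 larvae. The 5 leading genes together held 49.2% and 54.1% in A4 larvae, and 46.5% and 43.5% in A12 larvae, against 76.7% to 82.4% in adult libraries. Among abundant genes of both stages Cyp9f2 varied little, at 54.8 to 78.9 FPKM in adults and 67.5 to 100.9 FPKM in larvae. Cyp4e3 had the largest standard error of the tested P450 genes, 0.65 over the 4 groups, with 33.2 and 10.1 FPKM in A4 larvae and 29.4 and 75.9 FPKM in A12 adults.

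**Figure D5:**
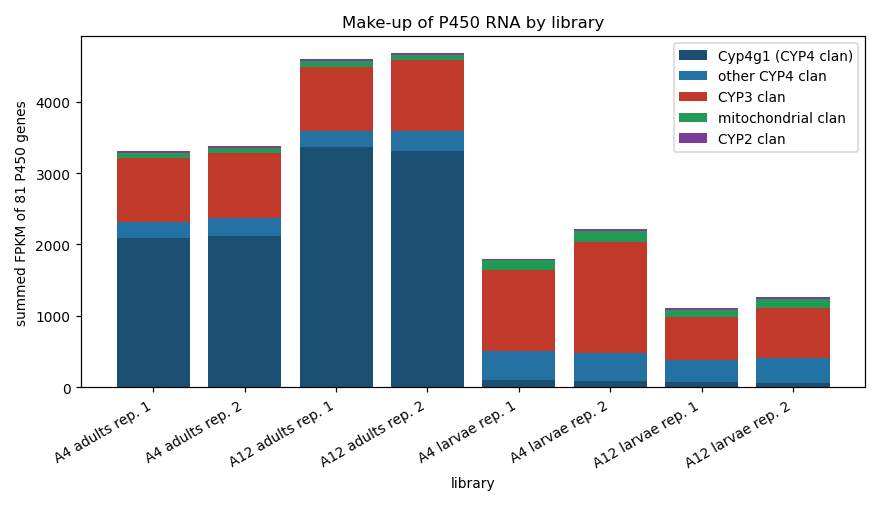
Summed FPKM of the 81 P450 genes in each library, stacked by Cyp4g1, the other CYP4 clan genes and the CYP3, mitochondrial and CYP2 clans. Cyp4g1 fills most of each adult bar, 62.8% to 73.1%, and the CYP3 clan most of each larval bar.

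Genes of electron supply and P450 regulation were read from a list of 11, of which 10 were tested. In larvae 1 was higher and 2 lower in A4, shares near the 8.75% and 25.9% of all tested genes, and in adults none passed the test in either direction, with 1 higher and 0 lower at an unadjusted p under 0.05. The cytochrome b5-related gene Cyt-b5-r, the 1 called higher, had 214.8 and 235.7 FPKM in A4 larvae, against 20.0 and 35.5 FPKM in A12 larvae. Its log2 change was 3.03 ± 0.27 (limma adjusted p = 0.000398), and its part in P450 electron supply was not tested. In adults it had 162.8 and 175.9 FPKM in A4 and 197.6 and 217.9 FPKM in A12, and its interaction was -3.32 ± 0.39 (adjusted p = 0.0024). The P450 reductase gene Cpr had 56.5 and 38.4 FPKM in A4 larvae, against 34.3 and 32.8 FPKM in A12 larvae (0.46 ± 0.22, adjusted p = 0.13). It was higher in adults of both genotypes, by 1.89 ± 0.22 in A4 and 2.30 ± 0.22 in A12.

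Of the regulators, Keap1, the inhibitor of the stress factor encoded by cnc, had 4.08 and 5.36 FPKM in A4 larvae, against 10.8 and 8.72 FPKM in A12 larvae (-0.91 ± 0.20, adjusted p = 0.0133). The partner of that factor, maf-S, had 19.2 and 30.3 FPKM in A4 larvae, against 51.0 and 46.2 FPKM in A12 larvae (-0.98 ± 0.28, adjusted p = 0.0323). After median centring 2 genes of the list were higher and none lower in A4 larvae, where 13.7% and 10.1% of all tested genes were. The gene cnc itself did not pass the test, with 46.3 and 34.3 FPKM in A4 larvae and 59.1 and 48.0 FPKM in A12 larvae (-0.41 ± 0.27, adjusted p = 0.255). The xenobiotic receptor gene Hr96 had 5.46 and 4.65 FPKM in A4 larvae and 6.79 and 6.74 FPKM in A12 larvae (adjusted p = 0.136). The mitochondrial reductase gene dare did not pass the test in larvae at -0.45 ± 0.17 (adjusted p = 0.0731) and was higher in adults of both genotypes. Over the list, 7 genes were higher and none lower in A4 adults than in A4 larvae, and 6 were higher and none lower in A12 adults than in A12 larvae, where 55.8% and 41.1% of all tested genes were higher. After median centring the list had 3 higher and 3 lower in A4 adults, where 23.5% and 30% of all tested genes were. In A12 adults it had 4 higher and 2 lower, where 27.1% and 29.2% of all tested genes were. Cyt-b5 rose by 1.15 ± 0.22 in A4 adults and by 1.30 ± 0.22 in A12 adults. The ferredoxin gene Fdxh had 10.9 and 7.56 FPKM in A4 adults and 9.86 and 9.23 FPKM in A12 adults and was listed at 0 in all larval libraries. The gene tgo, which encodes a partner of bHLH-PAS factors, passed the interaction test at 1.35 ± 0.36 (adjusted p = 0.0439), a call lost after median centring, and ss was too weak to be tested.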

How the data were processed

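FPKM values of 15296 gene models in 8 libraries, with confidence bounds and a status, were deposited by the authors. Bowtie, Bowtie2, TopHat 0.6 and Cufflinks were used, with build dm3, according to what is listed per the submitters' processing notes. Neither their order nor their options are given in the sources used here. Libraries were made from polyA RNA with a TruSeq kit after rRNA depletion, per the labels' protocols. A table of log2 ratios of A4 to A12 was also deposited by the authors. Removed were 17 gene models whose status was failed or high-data. Genes averaging 1 FPKM or more over the libraries were tested on log2(FPKM + 1), a scale that understates changes of weak genes. One limma 3.58.1 fit in R 4.3.3 covered the 4 groups, with eBayes, a mean-variance trend and Benjamini-Hochberg adjustment over 9679 genes at 0.05. Count models do not apply to FPKM. The fit was tested on simulated data.

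Named were the 10 largest called changes each way between genotypes, the 6 largest each way between stages, the 8 smallest interaction p-values, the 6 most abundant genes of each stage, and a list of known genes. Other genes were named after their values were seen. The members and lists were chosen with earlier results of these data known. Tried as alternatives were no filter, a minimum mean of 5 FPKM, pseudocounts of 0.1 and 5, genes listed at 0 left out, median centring, quantile normalization, eBayes without trend, a fit of the compared groups alone, a replicate block and each library left out. Clans were assigned by family name. Python 3.11.15 drew the figures.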

Additional observations from a re-analysis of the deposited data

Results flagged for a closer look

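By the interaction test the A4 minus A12 difference was lower in adults than in larvae for 18 of 67 tested P450 genes. That is 26.9%, where 6.75% of all tested genes were called lower. The 8 with the smallest p-values are given here. On the log2(FPKM + 1) scale the interaction was -3.40 for Cyp6a23, -3.28 for Cyp9b1, -3.15 for Cyp6w1 and -2.76 for Cyp6a2. It was -2.44 for Cyp28a5, -2.35 for Cyp4d8, -2.33 for Cyp4p3 and -1.91 for Cyp6d4. Cyp9b1 was listed at 0 in both A12 larval libraries, so its value depends on the pseudocount and is not a bound. The call on Cyp4d8 was lost without A4 adults replicate 2 (adjusted p = 0.0504), and the other 7 passed under each alternative that could be fitted. With groups of 2 libraries no single library could be tested as an outlier.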

How the results depend on the processing

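With 2 libraries a group, counts of P450 genes moved with the processing. None of the 48 values of named genes run over the alternatives changed sign. These were chosen for large called changes or small p-values, so they do not show how stable directions are in general. Outside these 48, Cyp6w1 in A4 adults against A4 larvae, 0.61, became -0.35 after median centring. In larvae the count higher in A4, 28, became 13 when only larvae were fitted and 15 to 27 with 1 library left out. The count lower, 6, became 2 with median centring, 3 with quantile normalization, 1 with larvae alone and 3 to 6 with 1 library left out. In adults 1 gene was higher with a pseudocount of 5 and 2 without genes listed at 0, and 1 was lower with no filter; leaving out any 1 library gave 0 both ways. For adults against larvae, median centring gave 9 higher in A4 (18 to 21 with 1 library left out, 26 to 32 lower) and 18 higher in A12 (23 to 29, 11 to 14 lower). Interactions above 0, 3, became 5 without genes listed at 0, 1 with median centring and 0 to 4 with 1 library left out, and those below 0, 18, became 9 to 21. Correlations of replicate 1 minus replicate 2 between groups ran from -0.0617 to 0.0857, so the numbers were not taken to pair the libraries. With the replicate block 27 genes were higher and 6 lower in A4 larvae, and it changed no call on the 48 named values. Leaving out a library leaves its partner alone, which is then assumed to vary like the other groups.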

Other observations

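Other detoxifying enzyme families, read by family name alone, also differed in larvae. Of 32 tested glutathione transferase genes, which conjugate glutathione, 12 were higher and 3 lower in A4 larvae, with a median log2 change of 0.35, where 8.75% of all tested genes were higher and 25.9% lower. Their sums overlapped, at 1831.1 and 2307.7 FPKM in A4 larvae and 1817.2 and 2104.1 FPKM in A12 larvae. Of 11 tested UDP-glycosyltransferase genes, which add sugars, 6 were higher and 0 lower, and the 17 listed genes summed to 91.4 and 94.2 FPKM in A4 larvae, against 42.5 and 43.5 FPKM in A12 larvae. In adults neither family had a call by limma, where 0.217% and 0.517% of all tested genes were higher and lower. At an unadjusted p under 0.05 glutathione transferases had 2 higher and 1 lower, and UDP-glycosyltransferases 0 higher and 1 lower. Over all tested genes 3.67% were higher and 6.87% lower at that level.

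Steroid hormone P450 genes lie outside the naming rule. Of 4 tested, 2 were lower in A4 larvae, phm and spok, where 25.9% of all tested genes were lower, and neither was after median centring. Summed over 6 genes, levels were 50.7 and 43.5 FPKM in A4 larvae, against 69.0 and 77.0 FPKM in A12 larvae. In adults of both genotypes all 4 were lower than in larvae, where 13.9% of all tested genes were in A4 and 17.6% in A12. After median centring all 4 were still lower, where 30% and 29.2% of all tested genes were.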
